A study of Mus musculus with 15 samples.

Results

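Macrophages and monocytes are phagocytes of the myeloid lineage, and the markers described here are 31 genes by which they are recognised in bulk tissue. The genes were chosen by name, with earlier results of these data known, and each is represented by its brightest probe that was well above background. Of the 31 genes, 27 passed the filter on dim probes and are among the 22012 genes tested in all. The 4 that did not pass were Fcgr1, Msr1 and Chil3, whose probes were well above background on 0 of 15 arrays, and Clec10a, whose probe was so on 1 array. Emr1, which encodes a classical macrophage surface antigen, is given under its symbol Adgre1, and Chi3l3 under Chil3.

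Gene expression was measured with 1-colour Agilent arrays in mucosa scraped from 30 mm of distal colon of female Balb/cJ mice, 1 mouse to an array and 5 mice to a group. The water group received drinking water without dextran sodium sulfate (DSS), and the labels and the design text differ on whether these mice were also dosed with vehicle. The DSS vehicle group received 4% DSS, which is toxic to the lining of the colon, in 3 cycles of 4 days with washouts of 3 days, together with the vehicle of filgotinib. The filgotinib group received the same DSS and filgotinib, an inhibitor with a preference for the kinase JAK1, by gavage, 30 mg/kg each day. All mice were 8 weeks old when treatment began. A level is the log2 signal of a gene's probe minus the 75th percentile of its array, so it is comparable between mice for 1 gene and not between genes. A gene is called where the adjusted p of limma, over all genes tested, was under 0.05, and "rose" and "fell" are used of such calls only.

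In the healthy colon, monocytes from the blood enter the mucosa continuously and mature into resident macrophages, which clear dying cells and microbes and are marked by Csf1r, Adgre1, C1q, Mrc1 and Cd163. In colitis, recruited monocytes can remain in an inflammatory state and produce cytokines such as interleukin 1 beta. Most of the markers encode surface receptors, the adaptors through which those receptors signal, or proteins of the lysosome. Several are shared with dendritic cells (Itgax, Cd83), with neutrophils (Itgam, Clec7a, Fcer1g) or with leukocytes in general (Laptm5), and Ctss is also made by other antigen-presenting cells. Lyz2 has a near-identical copy, Lyz1, so its value may hold signal of both. In bulk samples, fewer cells of a type and less RNA per cell cannot be told apart.

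The arrays lay on 6 slides scanned on 4 days, and groups were not spread evenly over them. Slide 1 held 3 water mice only, slide 2 held 3 DSS vehicle and 2 filgotinib mice, slide 4 held 2 water mice and 1 DSS vehicle mouse, and slides 3, 5 and 6 held 1 group each. The share of probes clearly above background ranged from 50.24% to 62.08% over the arrays. It was 57.97% to 62.08% in water, 52.97% to 58.59% in DSS vehicle and 50.24% to 58.34% in filgotinib mice. The 75th percentile of the signal ranged from 684.2 to 812.7, 570.1 to 666.5 and 551.6 to 663.1 in the same groups. No spot was saturated, and 5 arrays a group set the precision. Of the 27 markers, 18 were well above background on all 15 arrays. Adgre1, Trem2 and Fcgr2b were so in 2 water, 5 DSS vehicle and 2 filgotinib mice. Fcgr4 was so in 2, 4 and 1, Folr2 in 2, 1 and 2, and Cd163 in 3, 1 and 1. Clec7a and Fcgr3 were so in 5, 5 and 3, and Laptm5 in 5, 5 and 4. Part of the values of all these markers are thus readings near the background. The part of the unequal signal of the arrays in these counts and in the differences of dim markers was not tested.

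The first comparison asks how the markers differed after DSS. Clec7a, the receptor Dectin-1 for fungal beta-glucans, was 6.86-fold higher in DSS vehicle than in water mice, and Mpeg1, Laptm5, Aif1 and Itgax rose 2.47-fold to 3.32-fold. These 5 of 27 tested markers were called higher and 0 were called lower. The 5 are 18.5% of the tested markers, beside 10.8% of all genes called higher and 8.41% called lower. The median log2 fold change of the markers was 1.20, beside 0.05 over all genes, and 24 of 27 were above 0, beside 12636 of 22012 genes. By limma, 16 markers had an unadjusted p under 0.05, beside 7508 of 22012 genes. These figures include Adgre1, Trem2, Fcgr2b and Fcgr4, which passed the filter only with the DSS vehicle arrays. Over the 21 markers well above background on at least 10 arrays the median was 1.16. The groups did not overlap for Clec7a and Aif1, higher after DSS, which are 7.41% of the tested markers beside 9.84% of all genes, and 0 markers were lower without overlap, beside 6.19%.

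**Figure D1:**
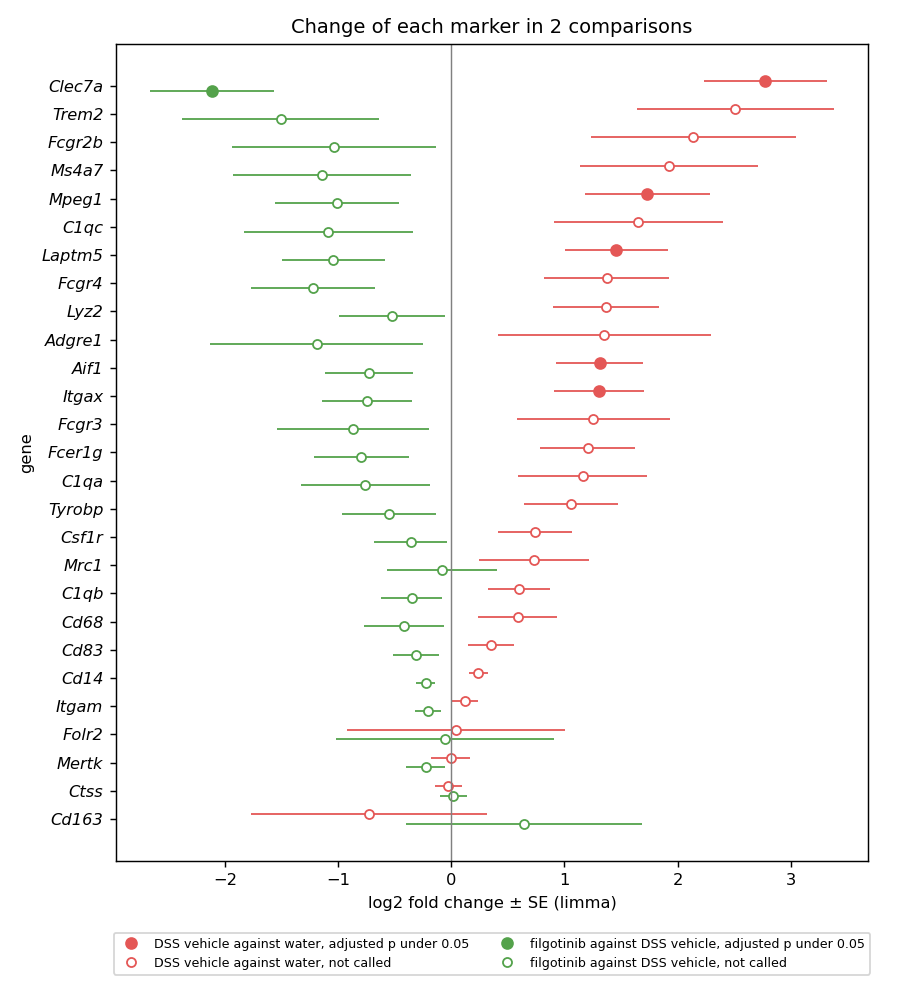
The log2 fold change of each of the 27 tested markers with its SE from limma (x axis), for DSS vehicle against water (red) and for filgotinib against DSS vehicle (green), with filled points for an adjusted p under 0.05. Clec7a at 2.78 and -2.12 lies farthest out on both sides, and both comparisons share the DSS vehicle mice.

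The 5 markers that rose had these values in the mice. For Clec7a, the level was -4.55, -4.94, -4.64, -4.68 and -3.68 in water mice 1 to 5, -2.59, -2.10, -1.31, -1.76 and -0.85 in DSS vehicle mice 1 to 5, and -5.46, -2.38, -3.25, -2.93 and -5.18 in filgotinib mice 1 to 5. Each DSS vehicle mouse lay above every water mouse, and the filgotinib mice spanned both groups. Filgotinib mice 1 and 5 lay below all water mice, in readings that were not well above background. The log2 fold change was 2.78 ± 0.55 SE (adjusted p = 0.00386).

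Mpeg1 encodes perforin-2, a pore-forming protein of phagocytes that acts on engulfed bacteria. Its level was -0.42, -1.57, -1.17, -1.39 and 0.07 in water mice 1 to 5, 0.14, -0.03, 1.12, 0.75 and 2.19 in DSS vehicle mice 1 to 5, and -1.58, 0.52, 1.30, 0.03 and -1.16 in filgotinib mice 1 to 5. Water mouse 5 at 0.07 lay within the DSS vehicle values, the only overlap between these groups, and the log2 fold change was 1.73 ± 0.55 SE (adjusted p = 0.0412). A second Mpeg1 probe gave 1.36 ± 0.55 SE (adjusted p = 0.10 in a fit over single probes).

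Laptm5, a lysosomal membrane protein of haematopoietic cells, had levels of -2.89, -3.74, -3.61, -3.63 and -2.42 in water mice 1 to 5, -2.09, -2.61, -1.66, -2.04 and -0.59 in DSS vehicle mice 1 to 5, and -3.82, -2.23, -1.92, -2.28 and -3.97 in filgotinib mice 1 to 5. Water mouse 5 at -2.42 lay above DSS vehicle mouse 2 at -2.61, and the other DSS vehicle mice lay above all water mice (log2 fold change 1.46 ± 0.46 SE, adjusted p = 0.0390).

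Aif1 encodes Iba1, an actin-binding protein of macrophages and microglia. The level of Aif1 was -0.98, -1.79, -1.45, -1.86 and -0.69 in water mice 1 to 5, -0.48, -0.68, 0.11, 0.01 and 0.82 in DSS vehicle mice 1 to 5, and -1.67, -0.34, 0.04, -0.22 and -1.68 in filgotinib mice 1 to 5. The highest water mouse at -0.69 lay just below the lowest DSS vehicle mouse at -0.68, and the log2 fold change was 1.31 ± 0.39 SE (adjusted p = 0.0292).

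Itgax encodes CD11c, an integrin chain of dendritic cells and of mucosal macrophages. Its values were -1.30, -2.77, -2.21, -2.87 and -1.46 in water mice 1 to 5, -1.37, -1.28, -0.59, -0.80 and -0.04 in DSS vehicle mice 1 to 5, and -2.39, -1.04, -1.11, -0.88 and -2.40 in filgotinib mice 1 to 5. Water mouse 1 at -1.30 lay above DSS vehicle mouse 1 at -1.37, the only overlap between these groups (log2 fold change 1.31 ± 0.40 SE, adjusted p = 0.0349).

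**Figure D2:**
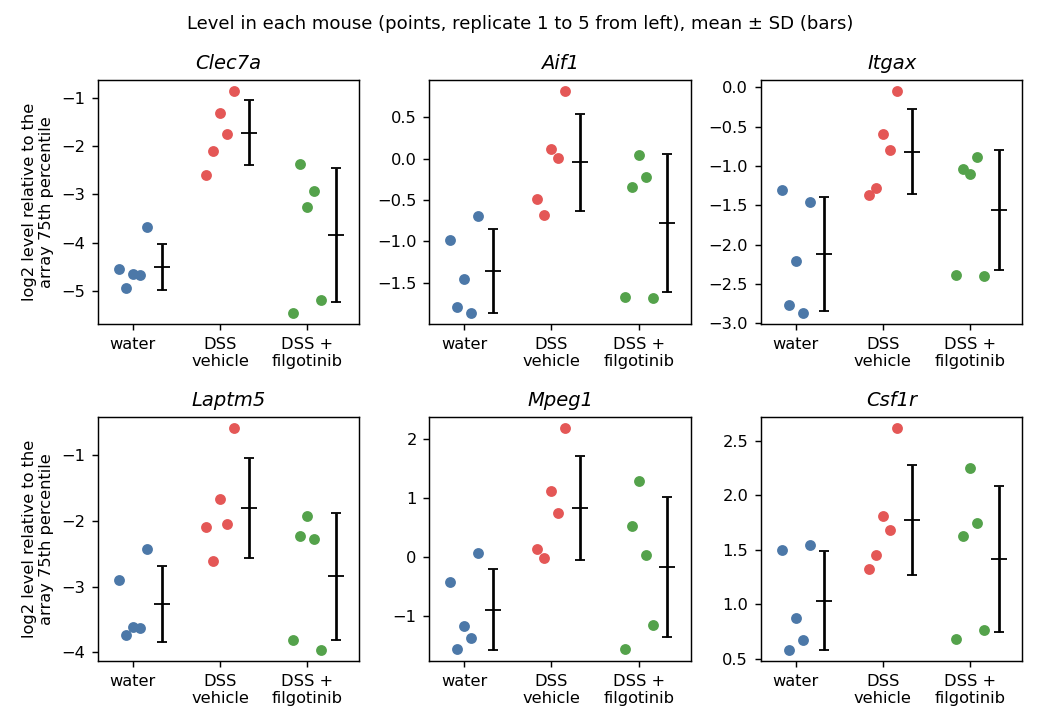
The log2 level relative to the 75th percentile of the array (y axis) in each mouse (points, replicates 1 to 5 from left) with mean and SD for the 5 markers that rose after DSS and for Csf1r. Clec7a and Aif1 do not overlap between water and DSS vehicle mice, and filgotinib mice 1 and 5 are the lowest of their group in each of the 6 panels.

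Removing a single mouse left the call of Clec7a in place in all 15 fits, with adjusted p from 0.00195 to 0.0121. The calls of Aif1, Itgax, Laptm5 and Mpeg1 were each lost when any of water mice 2, 3 and 4 and DSS vehicle mice 3, 4 and 5 was removed, and that of Laptm5 also without DSS vehicle mouse 1. Their largest adjusted p values were then 0.0754, 0.0914, 0.0892 and 0.0956. Between 1 and 8 markers were called higher with 1 mouse left out: 1 when water mouse 2, 3 or 4 was removed or DSS vehicle mouse 4 or 5, 2 without DSS vehicle mouse 3, and 8 without filgotinib mouse 3. As shares of the tested markers, 1 is 3.7%, 2 is 7.41% and 8 is 29.6%, beside 6.91% to 12% of all genes called higher in the 15 fits.

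**Figure D3:**
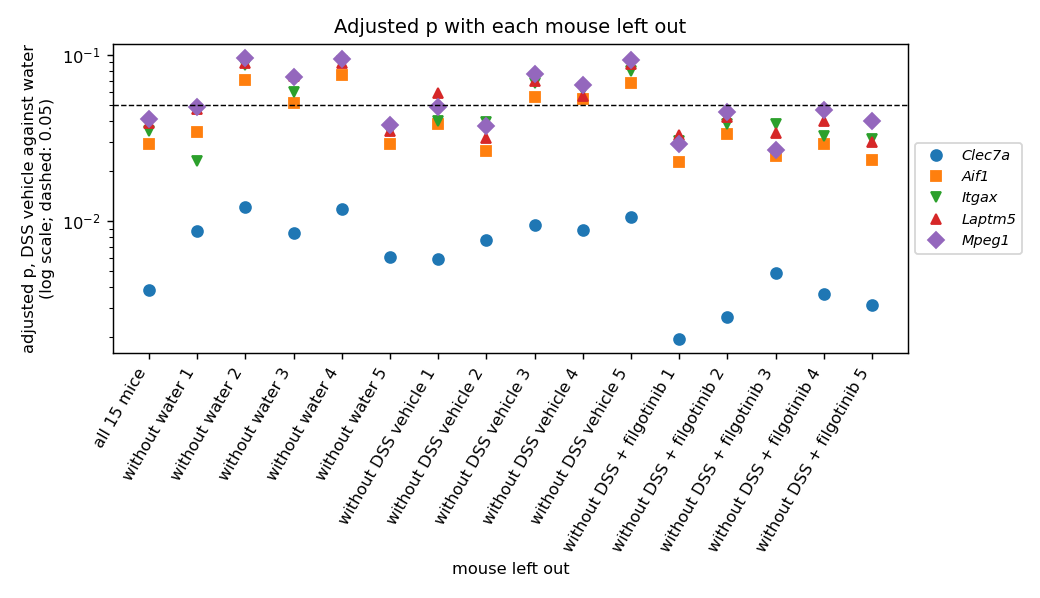
Adjusted p of DSS vehicle against water (y axis, log scale) with all 15 mice and with each mouse left out in turn (x axis), for the 5 markers called higher; the dashed line is 0.05. Clec7a lies between 0.00195 and 0.0121 in the 15 fits, whereas the other 4 cross the line in at least 6 of the 15 fits.

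On slide 4, which held 1 DSS vehicle and 2 water mice, the difference was 2.06 for Clec7a and 0.39 to 0.56 for Aif1, Itgax, Laptm5 and Mpeg1. The median difference over the 27 markers on this slide was 0.30, beside 0.08 over all genes, and 23 were above 0. With the slide as a fixed block, which leaves this 1 mouse to carry the comparison, 0 markers were called, beside 0.382% of all genes. With the slide as a random block 2 were called higher, and with the scan day as a block 2, or 7.41% of the tested markers beside 9.24% and 8.82% of all genes.

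The promoters of the 5 markers that rose are shown because PU.1, the lineage factor of macrophages, binds purine-rich sites with the core GAGGAA close to the start of many myeloid genes. The sequences are the 250 bases before the RefSeq start of each gene in GRCm38.p6, read 5′ to 3′ on the strand of the gene, with GAGGAA or its complement TTCCTC in capitals.
Clec7a, chr6:129472780-129473029, minus strand: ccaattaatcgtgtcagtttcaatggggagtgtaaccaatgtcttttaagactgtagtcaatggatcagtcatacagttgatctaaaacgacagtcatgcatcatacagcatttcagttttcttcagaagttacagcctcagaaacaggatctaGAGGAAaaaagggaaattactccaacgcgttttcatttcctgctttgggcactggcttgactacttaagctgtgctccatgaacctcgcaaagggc
Mpeg1, chr19:12460520-12460769, plus strand: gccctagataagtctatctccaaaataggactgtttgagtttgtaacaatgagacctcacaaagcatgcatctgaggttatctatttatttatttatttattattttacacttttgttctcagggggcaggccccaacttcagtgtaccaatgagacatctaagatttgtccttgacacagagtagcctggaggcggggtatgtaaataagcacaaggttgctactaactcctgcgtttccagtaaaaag
Laptm5, chr4:130913066-130913315, plus strand: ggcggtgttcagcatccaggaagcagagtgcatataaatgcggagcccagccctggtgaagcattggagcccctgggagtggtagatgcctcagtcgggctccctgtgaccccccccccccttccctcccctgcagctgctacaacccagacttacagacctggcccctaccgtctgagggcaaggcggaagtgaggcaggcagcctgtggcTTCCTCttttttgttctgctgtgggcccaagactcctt
Aif1, chr17:35176053-35176302, minus strand: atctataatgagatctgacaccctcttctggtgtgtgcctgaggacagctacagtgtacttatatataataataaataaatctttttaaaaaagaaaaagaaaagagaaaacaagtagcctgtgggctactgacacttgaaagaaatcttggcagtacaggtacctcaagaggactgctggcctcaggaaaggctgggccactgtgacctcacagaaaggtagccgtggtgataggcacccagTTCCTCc
Itgax, chr7:128129300-128129549, plus strand: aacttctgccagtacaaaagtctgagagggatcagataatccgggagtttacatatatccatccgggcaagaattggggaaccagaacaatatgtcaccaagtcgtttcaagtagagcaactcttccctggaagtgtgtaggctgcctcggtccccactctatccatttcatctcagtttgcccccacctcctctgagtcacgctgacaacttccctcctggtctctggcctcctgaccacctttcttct
The match began 96 bases before the start in Clec7a, 38 in Laptm5 and 7 in Aif1, and no match lay in this window of Mpeg1 and Itgax. Of the 31 markers, 23 had a promoter in the RefSeq table. GAGGAA on either strand was found in 13 of these 23, or 56.5%, beside 23.1% of 27025 promoters. The other 10 with a match were C1qb, C1qc, Cd68, Ctss, Fcgr1, Fcgr3, Fcgr4, Itgam, Mrc1 and Trem2. TTGCNNAA, a form of the C/EBP site, was in 2 (8.7% beside 9.55%), and TTCNNNGAA, the form of a STAT site, in 2 (8.7% beside 7.18%), Chil3 and Fcgr1. The form of an interferon-stimulated response element, GAAA with any 2 bases before another GAAA, was in 3 (13% beside 3.04%), Aif1, Ctss and Fcgr4. Each was searched on both strands, a match describes these letters only, and occupancy by a factor was not measured.

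Among the remaining surface and lineage markers, Ms4a7 and Adgre1 had differences of over 1 on the log2 scale without a call. Ms4a7, a tetraspan membrane protein of macrophages, had levels of -1.40, -3.46, -3.04, -3.42 and -1.34 in water mice 1 to 5, -1.39, -1.75, -0.62, -0.55 and 1.26 in DSS vehicle mice 1 to 5, and -3.58, -0.81, 0.59, -1.81 and -3.17 in filgotinib mice 1 to 5. DSS vehicle mouse 5 stood highest, and water mice 1 and 5 lay among the DSS vehicle mice (log2 fold change 1.92 ± 0.79 SE, adjusted p = 0.101). A second Ms4a7 probe gave 2.13 ± 0.86 SE (adjusted p = 0.101 in the fit over single probes). Adgre1 had levels of -3.03, -5.62, -5.48, -5.84 and -2.96 in water mice 1 to 5, -3.98, -4.57, -3.08, -3.16 and -1.39 in DSS vehicle mice 1 to 5, and -6.50, -3.09, -1.60, -4.87 and -6.07 in filgotinib mice 1 to 5. All 3 groups overlapped, and the log2 fold change of Adgre1 was 1.35 ± 0.94 SE (adjusted p = 0.332).

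Csf1r, the receptor for the growth factors Csf1 and Il34 on which most tissue macrophages depend, had levels of 1.5, 0.58, 0.88, 0.68 and 1.54 in water mice 1 to 5, 1.33, 1.45, 1.81, 1.68 and 2.61 in DSS vehicle mice 1 to 5, and 0.68, 1.63, 2.25, 1.75 and 0.77 in filgotinib mice 1 to 5. Its log2 fold change was 0.74 ± 0.32 SE (adjusted p = 0.123), with water mice 1 and 5 above DSS vehicle mice 1 and 2. Another probe of Csf1r gave 0.27 ± 0.06 SE and was called in the fit over single probes (adjusted p = 0.00966), so the 2 probes share a sign and differ in size. Cd14, the co-receptor for lipopolysaccharide, differed by 0.24 ± 0.09 SE (adjusted p = 0.0662), Cd83, a marker of activated dendritic cells, by 0.35 ± 0.20 SE (adjusted p = 0.236), and Itgam, the CD11b integrin chain, by 0.12 ± 0.12 SE (adjusted p = 0.50). In the fit over single probes, a second Cd14 probe gave 0.30 ± 0.10 SE and was called (adjusted p = 0.0469). The Cd14 probe used here was not called in that fit (adjusted p = 0.0723). A second Itgam probe gave 0.40 ± 0.30 SE (adjusted p = 0.376).

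The Fc receptor group holds receptors for antibody, the adaptor chains Fcer1g and Tyrobp, and Trem2, a lipid receptor that signals through Tyrobp. The levels of Trem2 were -3.37, -6.23, -6.06, -5.21 and -3.22 in water mice 1 to 5, -2.83, -3.57, -1.54, -2.86 and -0.74 in DSS vehicle mice 1 to 5, and -6.54, -2.92, -1.64, -4.10 and -3.88 in filgotinib mice 1 to 5. Water mice 1 and 5 lay among the DSS vehicle mice, and the log2 fold change was 2.51 ± 0.87 SE (adjusted p = 0.0570). Of the water readings of Trem2, Fcgr2b and Adgre1, 3 of 5 each were not well above background, so the sizes of their differences rest on such readings. These 3 genes reached the minimum of 5 arrays in the DSS vehicle group alone. Fcgr4, well above background in 2 water, 4 DSS vehicle and 1 filgotinib mice, also passed the filter only with the DSS vehicle arrays.

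Fcgr2b, the inhibitory Fc receptor, had levels of -4.28, -6.40, -7.06, -6.60 and -4.09 in water mice 1 to 5, -4.70, -4.54, -3.34, -3.84 and -1.31 in DSS vehicle mice 1 to 5, and -6.54, -3.39, -2.12, -4.76 and -6.10 in filgotinib mice 1 to 5. The water group itself spanned from -7.06 to -4.09, and the log2 fold change was 2.14 ± 0.90 SE (adjusted p = 0.111). Fcgr4, an activating receptor, had levels of -4.61, -5.37, -5.89, -5.92 and -4.53 in water mice 1 to 5, -4.98, -4.15, -3.70, -3.96 and -2.67 in DSS vehicle mice 1 to 5, and -5.35, -4.86, -3.13, -6.20 and -6.04 in filgotinib mice 1 to 5. DSS vehicle mouse 1 lay below water mice 1 and 5 (log2 fold change 1.37 ± 0.55 SE, adjusted p = 0.0953). Fcer1g, Fcgr3 and Tyrobp had log2 fold changes of 1.20, 1.25 and 1.06 (adjusted p = 0.0579, 0.205 and 0.0879). A second Fcgr3 probe gave 0.82 ± 0.70 SE (adjusted p = 0.449 in the fit over single probes).

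C1qa, C1qb and C1qc encode the 3 chains of complement C1q, which tissue macrophages secrete. C1qc had levels of -1.13, -2.84, -2.88, -2.58 and -0.62 in water mice 1 to 5, -0.97, -1.33, -0.20, -0.48 and 1.19 in DSS vehicle mice 1 to 5, and -3.42, -0.41, 0.59, -1.09 and -2.92 in filgotinib mice 1 to 5. C1qa had levels of -2.01, -3.12, -2.94, -3.33 and -1.40 in water mice 1 to 5, -2.13, -2.02, -1.37, -1.38 and -0.09 in DSS vehicle mice 1 to 5, and -3.34, -1.46, -0.64, -1.85 and -3.49 in filgotinib mice 1 to 5. C1qb had levels of -1.80, -2.36, -2.48, -2.23 and -1.73 in water mice 1 to 5, -1.92, -1.87, -1.69, -1.45 and -0.69 in DSS vehicle mice 1 to 5, and -2.53, -1.68, -1.22, -1.70 and -2.24 in filgotinib mice 1 to 5. The 3 genes put the mice in much the same order, with DSS vehicle mouse 5 highest and filgotinib mouse 3 next for each. Their log2 fold changes after DSS were 1.65 ± 0.75, 1.16 ± 0.57 and 0.60 ± 0.27 SE (adjusted p = 0.135, 0.167 and 0.135).

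Among scavenger and lectin receptors other than Clec7a, 0 were called. Mrc1, the mannose receptor of resident macrophages, had levels of -2.06, -2.99, -3.05, -2.93 and -1.79 in water mice 1 to 5, -2.61, -2.41, -1.74, -1.92 and -0.49 in DSS vehicle mice 1 to 5, and -3.29, -1.46, -0.59, -1.84 and -2.43 in filgotinib mice 1 to 5. The water and DSS vehicle values of Mrc1 overlapped (log2 fold change 0.73 ± 0.49 SE, adjusted p = 0.311). Cd163, the haemoglobin scavenger receptor, had levels of -4.51, -2.88, -6.95, -7.34 and -4.38 in water mice 1 to 5, -7.07, -6.99, -6.20, -6.75 and -2.69 in DSS vehicle mice 1 to 5, and -6.52, -5.00, -2.60, -6.29 and -6.09 in filgotinib mice 1 to 5. Water mouse 2, DSS vehicle mouse 5 and filgotinib mouse 3 stood highest, 1 in each group, and 5 of 15 arrays were well above background (log2 fold change -0.73 ± 1.04 SE, adjusted p = 0.658).

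Folr2, a folate receptor of resident macrophages, had levels of -3.25, -5.72, -6.96, -5.53 and -2.81 in water mice 1 to 5, -5.12, -6.68, -5.03, -4.47 and -2.77 in DSS vehicle mice 1 to 5, and -6.51, -3.92, -2.27, -6.25 and -5.41 in filgotinib mice 1 to 5. Water mice 1 and 5, DSS vehicle mouse 5 and filgotinib mouse 3 stood highest, and the log2 fold change was 0.04 ± 0.96 SE (adjusted p = 0.981). Mertk, a receptor for the uptake of dying cells, had a 95% interval of the difference from -0.38 to 0.37 (adjusted p = 0.988).

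Of the remaining lysosomal and cytoplasmic markers, Lyz2, the lysozyme of macrophages, came nearest to a call. Lyz2 had levels of 3.26, 2.42, 2.91, 2.38 and 4.00 in water mice 1 to 5, 4.01, 3.75, 4.22, 4.41 and 5.41 in DSS vehicle mice 1 to 5, and 2.67, 4.54, 4.61, 4.63 and 2.72 in filgotinib mice 1 to 5. Water mouse 5 at 4.00 lay among the DSS vehicle mice (log2 fold change 1.37 ± 0.47 SE, adjusted p = 0.0555). A second Lyz2 probe gave 0.77 ± 0.48 SE (adjusted p = 0.285 in the fit over single probes). Cd68, a lysosomal glycoprotein, had levels of -0.84, -1.30, -1.14, -0.91 and -0.38 in water mice 1 to 5, -0.73, -0.86, -0.32, -0.37 and 0.65 in DSS vehicle mice 1 to 5, and -1.42, -0.40, 0.30, -0.62 and -1.58 in filgotinib mice 1 to 5. Its log2 fold change of 0.59 ± 0.35 SE was within the spread of the mice (adjusted p = 0.257). A second Cd68 probe gave 0.18 ± 0.44 SE (adjusted p = 0.81 in the fit over single probes).

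Ctss encodes the protease cathepsin S, which trims the invariant chain of MHC class II. Ctss had levels of 7.06, 6.67, 7.11, 6.96 and 6.78 in water mice 1 to 5, 6.99, 7.10, 6.69, 6.94 and 6.74 in DSS vehicle mice 1 to 5, and 7.08, 6.73, 6.74, 7.21 and 6.78 in filgotinib mice 1 to 5. The 3 groups covered the same range, with a 95% interval of the DSS difference from -0.28 to 0.23 (adjusted p = 0.901).

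**Figure D4:**
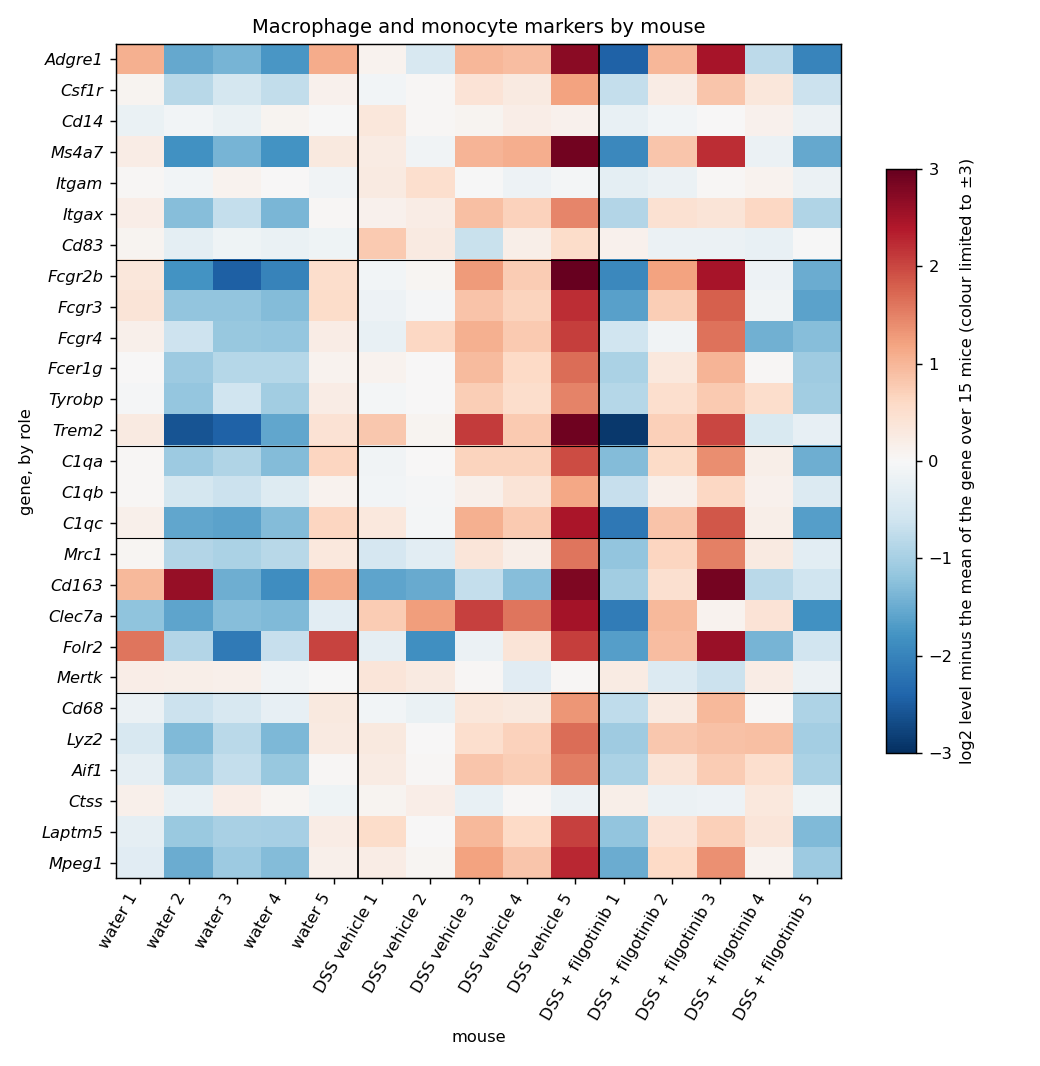
Each of the 27 tested markers (rows, grouped by role) in each of the 15 mice (columns), as the log2 level minus the mean of the gene over the mice, with the colour limited to 3 in either direction. Most rows are red in DSS vehicle mouse 5 and filgotinib mouse 3 and blue in water mice 2, 3 and 4 and filgotinib mice 1 and 5, while Cd14, Itgam, Cd83, Mertk and Ctss are near white in most mice.

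The markers differed between mice of 1 group more than most genes did. The median pooled within-group SD was 0.80 for the 27 markers, beside 0.19 over all genes tested, and 26 of 27 lay above the latter. DSS vehicle mouse 5 was the highest of its group for 22 of 27 markers, filgotinib mouse 3 for 19 and water mouse 5 for 20. Filgotinib mouse 1 was the lowest of its group for 16 markers and filgotinib mouse 5 for 7.

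The median of the 27 centred levels (each minus the mean of its gene over all mice) was 0.08, -1.08, -0.90, -1.14 and 0.23 in water mice 1 to 5. It was 0.11, 0.02, 0.73, 0.59 and 1.68 in DSS vehicle mice 1 to 5, and -1.03, 0.49, 0.96, 0.12 and -0.96 in filgotinib mice 1 to 5. Water mice 1 and 5 thus lay among the DSS vehicle mice, and filgotinib mice 1 and 5 among the lower water mice. The summed signal of the markers, in multiples of the array's 75th percentile, ranged from 189 to 236 in water, 217 to 270 in DSS vehicle and 194 to 270 in filgotinib mice. A sum of this kind, here and for the lists below, is set mostly by its brightest probes. Here these are Ctss and Itgam, with mean water levels of 6.92 and 6.13 beside 2.99 for Lyz2. Ctss and Itgam differed by -0.03 and 0.12 after DSS, so the sum says little of the dimmer markers.

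Fibroblast markers, and in part endothelial and smooth muscle ones, were high and low in the same mice. The centred median of 9 of 9 fibroblast markers was 0.60, -1.73, -1.50, -0.71 and 0.92 in the water mice, 0.74, -0.39, 1.25, 1.16 and 2.23 in the DSS vehicle mice, and -2.99, 0.72, 2.11, -0.39 and -1.76 in the filgotinib mice. DSS vehicle mouse 5, filgotinib mouse 3 and water mouse 5 were the highest of their groups for fibroblast markers too, and filgotinib mice 1 and 5 the lowest of theirs. The summed fibroblast signal ranged from 3.96 to 26.2 in water, 11.6 to 66.4 in DSS vehicle and 1.78 to 54.3 in filgotinib mice, and these markers had median differences of 1.66 on the log2 scale after DSS and -1.44 with filgotinib, with 0 of 9 called in either. For endothelium, 6 of 8 markers were tested (not Tek and Tie1), and their summed signal ranged from 2.27 to 3.47, 2.08 to 6.6 and 2.2 to 5.59 in the same groups. The endothelial centred median was highest in DSS vehicle mouse 5 at 2.03 and filgotinib mouse 3 at 1.80. The smooth muscle centred median shared part of this order. Filgotinib mouse 3 at 1.33 was the highest and filgotinib mouse 1 at -0.53 the lowest of their group, and water mice 2 and 4 were lowest of theirs (-1.04 and -1.01). DSS vehicle mouse 5 at 1.49 came after DSS vehicle mouse 1 at 2.41. Other mice differed in order, with filgotinib mouse 5 at 0.58 second in its group and water mouse 1 at -0.14 highest of the water mice. For smooth muscle, 7 of 8 markers were tested and 0 called, with a summed signal from 25.5 to 33.3 in water, 31.1 to 103 in DSS vehicle and 27.8 to 50.9 in filgotinib mice. Markers of epithelium, 10 of 10 tested, stayed between -0.21 and 0.14 in their centred median over all mice, and 6 of them rose after DSS (median difference 0.26 on the log2 scale). Of all genes, 10.8% were called higher after DSS, and 19.2% after DSS and 11.3% with filgotinib were called in either direction. The part of these stromal differences in the macrophage marker values was not tested.

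Some markers of other leukocytes rose after DSS, in counts that stand beside 10.8% of all genes called higher and 8.41% called lower. Of 5 tested of 6 pan-leukocyte markers 2 rose, Coro1a and Cd52 (list median 0.90), and their summed signal ranged from 7.07 to 9.84 in water, 9.46 to 15.5 in DSS vehicle and 7.81 to 11.4 in filgotinib mice. Of 11 tested of 16 neutrophil markers 4 rose, led by S100a9 (log2 fold change 3.85, adjusted p = 0.00608), and Mmp9, Cxcr2, Ngp, Retnlg and Fpr1 were not tested. Their summed signal ranged from 161 to 187, 195 to 213 and 173 to 186 in the 3 groups. Of 4 tested of 8 dendritic cell markers Ccr7 alone rose (log2 fold change 2.14, adjusted p = 0.00180), and Zbtb46, Xcr1, Clec9a and Cd209a were not tested. The share of neutrophils and dendritic cells in the signal of Clec7a, Itgax, Fcer1g and Laptm5 was not tested. Counts for the other cell types were 4 of 7 mast cell, 1 of 10 T and NK cell and 2 of 7 B and plasma cell markers higher, and the 1 tested eosinophil marker, Siglecf, lower. In centred median, DSS vehicle mouse 5 was highest of its group for pan-leukocyte (1.39), dendritic (1.51), T and NK (0.59) and B and plasma cell markers (1.77). Filgotinib mouse 5 was lowest of its group for these lists (-0.92, -0.55, -0.43 and -1.30). Filgotinib mouse 4 or 2, not 3, was highest there. For neutrophil and mast cell markers DSS vehicle mouse 3 was highest (0.37 and 1.19).

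**Figure D5:**
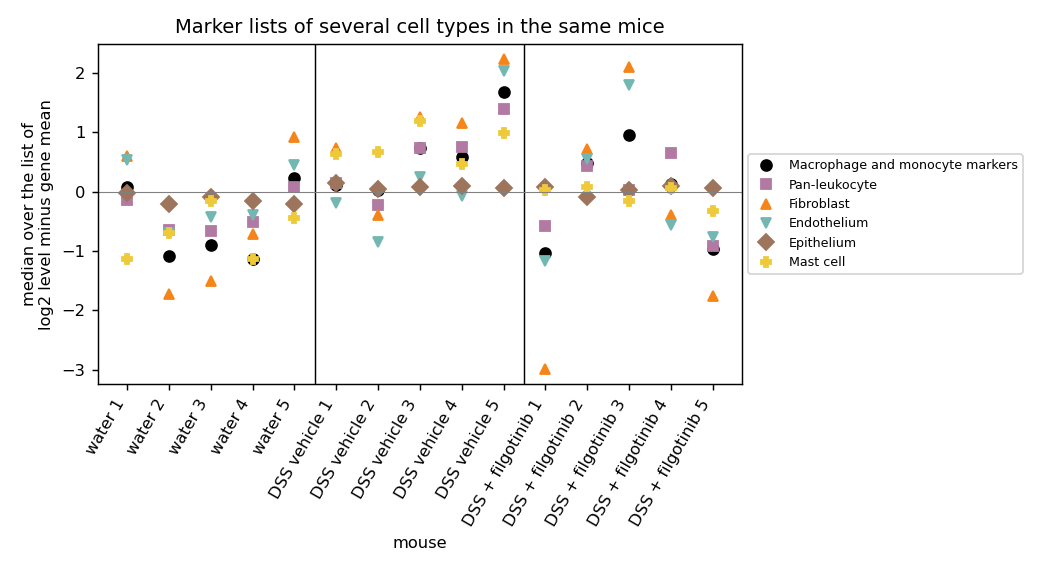
The median over a marker list of the log2 level minus the mean of each gene over all mice (y axis), in each mouse (x axis), for macrophage and monocyte markers (27 tested), pan-leukocyte (5), fibroblast (9), endothelium (6), epithelium (10) and mast cell (7) markers. DSS vehicle mouse 5 and filgotinib mouse 3 are high for macrophage, fibroblast and endothelial markers at once, while epithelial markers stay within -0.21 and 0.14.

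The levels of single markers were also set against the other 26 in the same mouse, a description chosen after the values were seen and given with no test. Clec7a minus the median of the other centred levels was -1.29, -0.52, -0.41, -0.23 and -0.55 in the water mice, 0.66, 1.23, 1.34, 1.01 and 0.82 in the DSS vehicle mice, and -1.11, 0.50, -0.88, 0.30 and -0.89 in the filgotinib mice. The DSS vehicle mice thus overlapped neither other group on this scale. Mrc1 ran the other way, at -0.04, 0.21, -0.07, 0.33 and 0.10 in the water mice, -0.63, -0.33, -0.42, -0.44 and -0.20 in the DSS vehicle mice, and -0.19, 0.17, 0.59, 0.15 and 0.66 in the filgotinib mice. Of the 27 markers, 2 were higher than in water mice without overlap after DSS, Clec7a and Mpeg1, and 1 lower, Mrc1. Mrc1 was apart from the filgotinib mice only by -0.20 against -0.19. A level set against the median of the others places some markers below it by construction. The means of Ctss were 0.59 in water and -0.69 in DSS vehicle mice, and those of Mertk 0.65 and -0.60, with overlap. This scale was not computed over all genes, so how often such a pattern occurs among them was not tested.

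Genes around the markers were taken from 5 lists written from general knowledge. Their counts after DSS stand beside 10.8% of all genes called higher and 8.41% called lower. Of 10 tested of 17 genes for monocyte recruitment and growth, 3 rose and 0 fell, and the list median was 0.84 on the log2 scale. Il34, a ligand of Csf1r, rose 2.05-fold (adjusted p = 0.00118), Csf2rb, the shared receptor chain for GM-CSF and interleukin 3, had a log2 fold change of 1.46 (adjusted p = 0.0268), and Ly6c2, a surface protein of inflammatory monocytes, of 1.21 (adjusted p = 0.00172). The chemokine receptor Ccr2 was among the 7 genes not tested. Csf1, the other ligand of Csf1r, differed by 0.66 ± 0.69 SE on the log2 scale (adjusted p = 0.534).

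Of 12 tested of 20 macrophage activation genes, 6 rose and 1 fell, with a median of 0.86. Ptgs2, the inducible cyclooxygenase, had a log2 fold change of 2.82 (adjusted p = 0.00924), the cytokine Il1b of 2.22 (adjusted p = 0.00981), and Nos2, the inducible nitric oxide synthase, of 1.32 (adjusted p = 0.00467). Acod1, which makes itaconate, was well above background in 0 water and 5 DSS vehicle mice and was at least 2.56-fold higher, taking the dimmest probe well above background as the limit in water (adjusted p = 0.0164). Tnf and Il1rn rose as well, and the inflammasome gene Nlrp3 fell (log2 fold change -0.61, adjusted p = 0.0217).

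Of 17 tested of 23 scavenging, lysosome and oxidase genes, 5 rose and 0 fell, with a median of 0.23. Gpnmb, a glycoprotein of lipid-laden macrophages, had a log2 fold change of 3.25 (adjusted p = 0.0108), the lectin gene Clec4n (Dectin-2) of 1.76 (adjusted p = 0.0446), the lysosomal protease Lgmn of 0.82 (adjusted p = 0.00117), and the oxidase subunit Cyba of 0.39 (adjusted p = 0.00434). Of 8 tested of 9 signalling genes, mostly kinases and phosphatases, that act behind receptors such as Clec7a and Trem2, 3 rose and 1 fell. The kinases Btk and Syk had log2 fold changes of 1.01 and 0.82 (adjusted p = 0.00131 and 0.00948), Lyn of 0.34 (adjusted p = 0.0188), and the exchange factor Vav1 fell (log2 fold change -0.64, adjusted p = 0.00569). Of 9 tested of 10 myeloid transcription factors Cebpb alone rose (log2 fold change 0.48, adjusted p = 0.00924), and Spi1, which encodes PU.1, was not tested.

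The second comparison asks how the markers differed between filgotinib and DSS vehicle mice. Clec7a fell, with a log2 fold change of -2.12 ± 0.55 SE, or 4.34-fold lower (adjusted p = 0.0251). It was the 1 marker of 27 called lower, or 3.7% beside 4.53% of all genes, and 0 were called higher beside 6.79%. The median log2 fold change of the markers was -0.73, beside 0.00 over all genes, and 25 of 27 were below 0, beside 10961 of 22012 genes. By limma, 4 markers had an unadjusted p under 0.05, beside 6247 of 22012 genes. For 0 markers were the groups without overlap, beside 3.12% of all genes lower without overlap and 4.87% higher. For Clec7a itself, filgotinib mouse 2 at -2.38 lay above DSS vehicle mouse 1 at -2.59, and filgotinib mice 3 and 4 lay below all DSS vehicle mice. Filgotinib mice 1 and 5 were not well above background for Clec7a, so the size of its difference rests in part on such readings.

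The other markers that rose after DSS had differences of -0.73 to -1.04 without a call. On the log2 scale, Laptm5 differed by -1.04 ± 0.46 SE (adjusted p = 0.152), Mpeg1 by -1.01 ± 0.55 SE (adjusted p = 0.248), Itgax by -0.75 ± 0.40 SE (adjusted p = 0.240) and Aif1 by -0.73 ± 0.39 SE (adjusted p = 0.233). For each of these 4, filgotinib mice 1 and 5 were the lowest of the group, and mice 2, 3 and 4 lay among the DSS vehicle mice. Trem2 had -1.51 ± 0.87 SE (adjusted p = 0.274), Fcgr4 -1.22 ± 0.55 SE (adjusted p = 0.162), Adgre1 -1.19 ± 0.94 SE (adjusted p = 0.437), Ms4a7 -1.14 ± 0.79 SE (adjusted p = 0.362) and C1qc -1.09 ± 0.75 SE (adjusted p = 0.361). Fcgr2b had -1.04 ± 0.90 SE (adjusted p = 0.486). Fcgr3 had -0.87 ± 0.67 SE (adjusted p = 0.426), while its second probe gave 0.03 ± 0.70 SE (adjusted p = 0.984 in the fit over single probes). Of 8 markers with several passing probes, 7 had probes that shared a sign in this comparison. C1qa had -0.76 ± 0.57 SE, Csf1r -0.36 ± 0.32 SE and C1qb -0.35 ± 0.27 SE (adjusted p = 0.410, 0.50 and 0.425). Mrc1 had -0.08 ± 0.49 SE, Folr2 -0.06 ± 0.96 SE and Cd163 0.64 ± 1.04 SE (adjusted p = 0.930, 0.977 and 0.730). The resident macrophage markers thus ranged from -1.19 for Adgre1 to 0.64 for Cd163, with 0 called.

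The call of Clec7a was kept in 13 of the 15 fits with 1 mouse left out, and was lost without DSS vehicle mouse 5 or filgotinib mouse 5 (adjusted p up to 0.0647). It was also lost with the slide as a fixed block (-2.18, adjusted p = 0.193) and with the scan day as a block (-2.11, adjusted p = 0.0634), where Cd83 was called instead (-0.54, adjusted p = 0.0297). On slide 2, with 2 filgotinib and 3 DSS vehicle mice, the difference of Clec7a was -2.18 and the median over the markers -1.10, with 1 of 27 above 0. Slide 2 holds filgotinib mouse 1 and DSS vehicle mouse 5, the lowest and the highest of their groups for many markers. The median over all mice was -0.43 without DSS vehicle mouse 5, -0.46 without filgotinib mouse 1 and -0.43 without filgotinib mouse 5.

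Around the markers, 1 of the 10 recruitment and growth genes fell with filgotinib, Il34 (log2 fold change -0.67, adjusted p = 0.0199), while Ly6c2 had -0.67 (adjusted p = 0.0512). Of the 12 activation genes 3 fell, Ptgs2 (-2.22, adjusted p = 0.0429), Acod1 (-1.85, adjusted p = 0.0421) and Tnf (-0.34, adjusted p = 0.0224), and Nlrp3 rose (0.61, adjusted p = 0.0343). Il1b had -1.49 (adjusted p = 0.0758). The exchange factor Vav1 rose among the genes behind the receptors (0.48, adjusted p = 0.0366) and the lysosomal membrane gene Lamp2 among the scavenging and lysosome genes (0.29, adjusted p = 0.0386), and 0 of 9 transcription factors were called. Of the markers of other cell types, 1 of 11 neutrophil markers fell (S100a9, -3.12, adjusted p = 0.0280), as did 4 of 7 mast cell markers, Ccr7 and Nkg7, and the eosinophil marker Siglecf rose (1.1, adjusted p = 0.00746). All these counts stand beside 4.53% of all genes called lower and 6.79% called higher.

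The third comparison asks what difference from water was left in the filgotinib mice. By limma, 0 of 27 markers were called, beside 6.42% of all genes called higher, 3.41% called lower and 9.83% in either direction. An unadjusted p under 0.05 was found for 0 markers, beside 6322 of 22012 genes. For 0 markers were the groups without overlap, beside 6.75% of all genes higher and 2.82% lower. The median log2 fold change was 0.40, beside 0.05 over all genes, and 22 of 27 were above 0, beside 12973 of 22012 genes. Clec7a had a log2 fold change of 0.66 with a 95% interval from -0.51 to 1.83 (adjusted p = 0.459). Mpeg1 had 0.72 with an interval from -0.46 to 1.90, Aif1 0.58 from -0.24 to 1.41, Itgax 0.56 from -0.30 to 1.42, and Laptm5 0.42 from -0.57 to 1.40. These intervals include 0 and also differences as large as those after DSS for Mpeg1, Aif1 and Itgax, so a lack of calls does not show that the groups were alike. Without filgotinib mouse 3 the median was 0.08, and without filgotinib mouse 5 it was 0.70. Among the genes around the markers, Lgmn, Cyba and Btk were called higher in filgotinib mice than in water mice (log2 fold changes 0.57, 0.38 and 0.58, adjusted p = 0.0196, 0.0145 and 0.0406).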

How the data were processed

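RNA of 15 mice was measured on 15 1-colour arrays, and the labels describe the mice of a group as separate animals. Per the file headers, the authors' scanner files hold the intensity of each spot after background subtraction and detrending by Agilent Feature Extraction 11.5.1.1, with other columns marking outlier, saturated and background spots. The authors also deposited a table of log2 values, used here as an alternative; how it was normalized is not given in the sources used here. Of tools, limma is named in the submitters' processing notes.

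The values used were log2 of the processed signal minus the 75th percentile of the array. Control spots and 101 probes with an outlier mark were left out, which left 56504 probes. Probes clearly above background on 5 or more of the 15 arrays were kept, and the brightest kept probe stood for its gene. Probes were named through the RefSeq table of GRCm38.p6 (32939 by accession, 10207 by symbol, 347 by a shared file name), and 13011 kept the name in the file. Groups were compared in 1 fit over 15 arrays with limma 3.58.1 (lmFit, eBayes) in R 4.3.3, two-sided, with Benjamini-Hochberg adjustment over 22012 genes. Values in a bound use the lowest signal well above background on each array of the dim group.

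The members and lists were chosen with earlier results of these data known. Values in every mouse are given for called markers and for up to 3 more per role, those with the largest differences after DSS. Promoters come from the RefSeq table without the bases after the start. The code was tested on simulated data. Alternatives were the scaling, background correction, deposited table, filters, probe choice, groups in the fit, slide, scan day and replicate blocks, and each mouse left out; the fit on scan day 1 alone and the differences within a slide were added after seeing the data.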

Additional observations from a re-analysis of the deposited data

Results flagged for a closer look

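Of 84 groups of 5 values checked, 1 held a value far from the others of its group: the log2 level of Cd163 in DSS vehicle mouse 5 was -2.69, while the other 4 DSS vehicle mice lay between -7.07 and -6.20. The gap was 0.802 of the range of the group. Chance gives such a value in about 1 of 20 groups. Cd163 was well above background in 1 of the 5 DSS vehicle mice.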

How the results depend on the processing

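After DSS, 5 markers were called higher. The count was 9 (33.3%, beside 12.4% of all genes called higher) with only the 2 groups compared in the fit, 2 (7.41%) with the slide as a random block (9.24% of all genes) or the scan day as a block (8.82%), and 0 with the slide as a fixed block (0.154%) or with scan day 1 only (3.19%). It ranged from 1 to 8 with each mouse left out (6.91% to 12% of all genes). Deviations from the group means in mice of the same number correlated with r from -0.516 to 0.532 over 15 pairs. So few pairs cannot settle whether the numbers pair the mice. The replicate block left 1 call, Clec7a (8.36% of all genes). The median log2 fold change of 1.20 was 0.30 with the slide as a fixed block and 0.30 within slide 4, where 1 DSS vehicle mouse meets 2 water mice.

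With filgotinib, the 1 lower call became 0 without a filter on dim probes, with only the 2 groups compared, with the slide as a fixed block and with scan day 1 only (1.45%, 2.37%, 0.922% and 3.6% of all genes called lower). It ranged from 0 to 2 with each mouse left out (2.39% to 5.53% of all genes): 0 without DSS vehicle mouse 5 or filgotinib mouse 5, and 2 without DSS vehicle mouse 3, filgotinib mouse 3 or filgotinib mouse 4. Against water, filgotinib mice had 1 marker called higher without the filter, beside 21.4% of all genes. It was Chil3, whose probes were well above background on 0 arrays. The median of 0.40 became -0.71 with the slide as a fixed block. The causes were not tested.

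Of 2244 recomputed marker values, 129 took the other sign with no call under either setting, and 0 reversed past the threshold. The scaling changed the balance of calls over all genes: 2369 higher and 1851 lower after DSS became 956 and 1566 with arrays scaled to a common median, 1494 and 998 with filgotinib became 1522 and 545, and 1414 and 750 against water became 254 and 267. Without the filter the median of all genes moved to 0.15 after DSS and 0.16 with filgotinib against water. Depth of signal limits Folr2 and Cd163 most, each well above background on 5 of 15 arrays, and Fcgr4, on 7.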
